A study of Mus musculus with 8 samples.

Results

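Tanycytes with Dio2 and Fndc3c1 genes were picked from a single-cell RNAseq library of the mouse median eminence (ME) by a rule on counts. A cell was taken as a tanycyte when Rax, Scn7a and Col25a1 together held at least 0.15% of its unique molecular identifiers (UMIs, which count captured transcript molecules). It was then placed on the Dio2/Fndc3c1 side when its UMIs of Dio2, Fndc3c1, Fezf2 and Lmo1 together were at least as many as those of Cfap126, Dynlrb2, Aqp4 and Mlc1. The rule took 123 of 990 cells, which is 12.4% of the library. These cells, called Dio2/Fndc3c1 tanycytes here, were described against the other 98 tanycytes and against the 769 cells that were not tanycytes by the rule.

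The library held the ME of 10 wild-type female C57BL/6 mice, 2 months old per the labels, pooled and dissociated with papain, so it was 1 sample and cells could not be assigned to animals. Bulk RNAseq of the whole ME came as 3 WT libraries, labelled C57BL/6 and WT, and 4 libraries labelled Rax::BrafV600E mutant, all with an age of 2 months in the labels. In the mutants, a tamoxifen-inducible Cre expressed from Rax switches on an activated form of the kinase Braf. The methods, which name control and mutant mice together, count 2 months to dissection from tamoxifen and not from birth. The paper describes the mutant tissue of these libraries as tumor and the control tissue as normal ME. Rax is expressed in tanycytes, which directs recombination to them. The controls' genotype beyond WT, and the sex of the bulk animals, are not given in the sources used here.

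Tanycytes are radial glia-like cells that line the floor and lower walls of the third ventricle and send a basal process into the hypothalamic tissue. Those in the ME reach the portal capillaries, form a tight-junction barrier between ventricular fluid and the ME, and act on hormones that pass there. Thyroid hormone is the best known case: Dio2 converts thyroxine to the active triiodothyronine, and Trhde breaks down thyrotropin-releasing hormone. Tanycytes at different heights along the ventricle differ in gene expression, and the upper ones share more genes with astrocytes.

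The Dio2/Fndc3c1 tanycytes held 1390910 UMIs, from 3413 to 57119 per cell with a median of 8667. The other tanycytes held 772984 UMIs with a median of 7199 per cell, and the remaining cells 7682395 UMIs with a median of 7819. Levels below are the summed UMIs of a gene in a group of cells per 1000000 UMIs of that group (CPM), with exact Poisson intervals where given. A total of 3 UMIs, the most that a count of 0 would allow, equals 2.16 CPM in the Dio2/Fndc3c1 tanycytes and 3.88 CPM in the other tanycytes. All intervals cover counting error only. With 1 library there was no replicate and no test between groups of cells, and ratios are descriptions of these cells.

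The values that chose the cells were as follows and are given as a description. Dio2 (ENSMUSG00000007682, GRCm38 chr12:90724552-90738438, minus strand) was at 191 CPM in the Dio2/Fndc3c1 tanycytes, 88.0 CPM in the other tanycytes and 6.90 CPM in all other cells. Fndc3c1 (ENSMUSG00000033737, chrX:106420041-106485401, minus strand), a fibronectin type III domain gene, was at 428, 154 and 10.8 CPM in the same order. The transcriptional regulator Lmo1 (ENSMUSG00000036111, chr7:109138572-109175207, minus strand) was at 239, 75.03 and 15.4 CPM. Fezf2 (ENSMUSG00000021743, chr14:12342094-12348189, minus strand), a forebrain transcription factor, was at 45.3, 15.5 and 0.391 CPM. On the other side of the rule, Mlc1, a membrane protein of astroglia, was at 292 CPM in the Dio2/Fndc3c1 tanycytes and 670.1 CPM in the other tanycytes. The water channel Aqp4 was at 15.1 and 62.1 CPM, and the cilium genes Cfap126 and Dynlrb2 at 17.3 and 13.7 CPM against 106 and 71.2 CPM. The genes that defined all tanycytes were closer between the tanycyte groups, with the sodium channel gene Scn7a (chr2:66673425-66784914, minus strand) at 1729 and 1889 CPM and the collagen gene Col25a1 (chr3:130131501-130599877, plus strand) at 1247 and 1191 CPM.

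**Figure D1:**
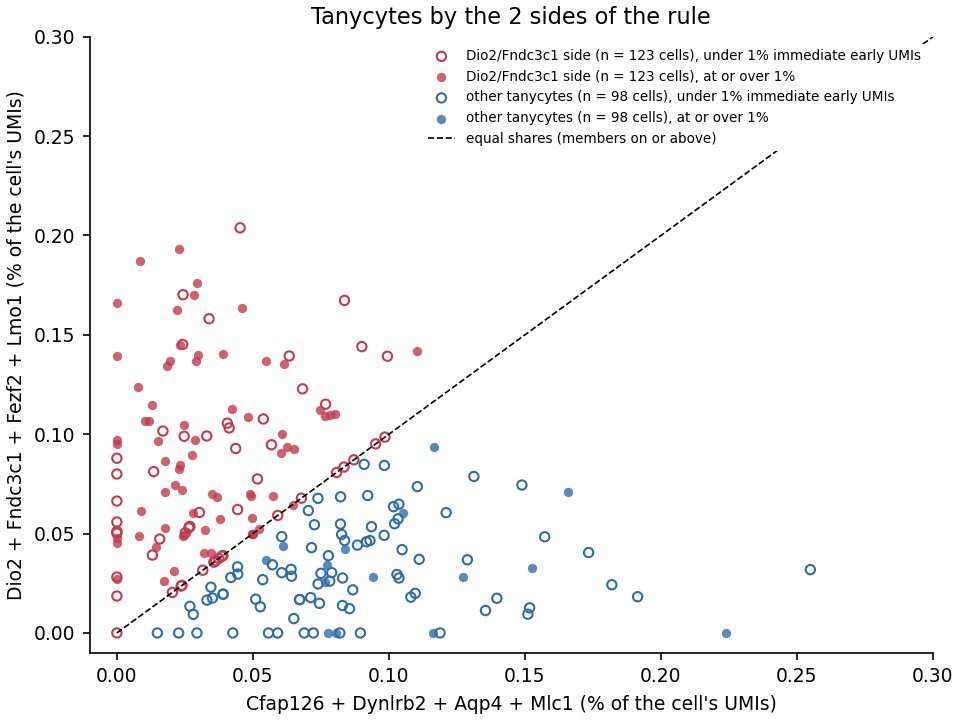
Percent of each cell's UMIs from the 4 genes of the Dio2/Fndc3c1 side of the rule (vertical axis) against the percent from the 4 genes of the other side (horizontal axis) in the 221 tanycytes, 1 point per cell, filled where immediate early genes held at least 1% of the UMIs. The 123 Dio2/Fndc3c1 tanycytes lie on or above the line of equal shares, 22 of them on it, and the 98 other tanycytes lie below it.

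The line between the tanycyte groups ran through a continuous field of cells. Of the 123 Dio2/Fndc3c1 tanycytes, 22 had equal UMIs on both sides of the rule, 12 were ahead by 1 UMI and 50 by at least 5, and 21 of the other tanycytes were behind by 1. The median Dio2/Fndc3c1 tanycyte had 7 UMIs of the first 4 genes and 3 of the second, and the median of the other tanycytes was 2 and 6. At the tanycyte minimum, the nearest cell inside had 0.152% of its UMIs from Rax, Scn7a and Col25a1 and the nearest outside 0.149%, and 16 cells outside lay between 0.10% and 0.15%.

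Not every cell carried both genes of the label. Dio2 and Fndc3c1 were both detected in 82 of the 123 cells, Fndc3c1 alone in 28, Dio2 alone in 8 and neither in 5. Fndc3c1 had a UMI in 89.4% of the Dio2/Fndc3c1 tanycytes and 57.1% of the other tanycytes, or 71.5% and 40.8% after each cell was thinned to 3000 UMIs. Dio2 had one in 73.2% and 43.9%, or 43.9% and 24.5% after thinning. In 241 haemoglobin-rich cells, which had a median of 7884 UMIs and served as the background, the shares were 4.15% for Fndc3c1 and 2.07% for Dio2. One of the 241 was among the other tanycytes, and without it the shares were 3.75% and 1.67% of 240 cells. Both genes were therefore also present above that background in the other tanycytes, and the label names a difference of degree between the tanycyte groups.

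Most of the tanycyte genes that the rule did not use were also high. Of 13 general tanycyte and radial glial genes with enough UMIs, 9 were at least 3-fold higher in the Dio2/Fndc3c1 tanycytes than in all other cells and 3 at least 3-fold lower. For comparison, 789 of 10762 genes, 7.33%, reached that fold, and 1372 genes, 12.7%, were at least 3-fold lower. Among the 9 were the growth factor gene Ptn at 2951 against 509 CPM, the glycolytic enzyme gene Aldoc at 2068 against 158 CPM and Gpr50, an orphan receptor gene known from tanycytes, at 198 against 13.4 CPM. The 3 lower genes were the radial glial lipid-binding gene Fabp7 (3.59 against 66.9 CPM), Sparcl1 (17.97 against 210.0 CPM) and Id3 (49.6 against 519.8 CPM). Against the other tanycytes the same list had a sum of 6716 against 8342 CPM and a median log2 ratio of -0.31, with 1 of 11 measured genes past 2-fold, the intermediate filament gene Nes at 85.6 against 41.4 CPM, or 65.6 against 39.1 CPM in cells with under 1% of UMIs from immediate early genes.

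Among the genes that the Dio2/Fndc3c1 tanycytes held furthest above all other cells, the first 3 by log2 ratio were Sfrp2, Lrat and Cldn10. Sfrp2, a secreted inhibitor of Wnt signalling (chr3:83766321-83774316, plus strand), was at 227 CPM against 4.95 CPM, a ratio of 45.9-fold (95% interval 32.7 to 66.1). Lrat, which makes retinyl esters for vitamin A storage (chr3:82892579-82903973, minus strand), was at 118 against 2.60 CPM, 45.3-fold (95% interval 28.4 to 76.1). The tight junction gene Cldn10 (chr14:118787908-118875489, plus strand) was at 1666 against 62.0 CPM, 26.9-fold (95% interval 24.3 to 29.7). Sfrp2 was found in 75.6% of the Dio2/Fndc3c1 tanycytes and 0.83% of the haemoglobin-rich cells. Others of the 15 highest genes were the Wnt receptor gene Fzd5 (392 against 19.4 CPM), the homeobox gene Nkx2-1 (251 against 10.5 CPM), the vasodilator peptide gene Adm (334 against 13.7 CPM) and the kainate receptor gene Grik3 (379 against 16.8 CPM). The remainder were Ager, Il1rapl2, Lix1, Ppp1r1b, Trpm3, Shroom3, Mamdc2 and Mest, from 41.7 CPM (Il1rapl2) to 1402 CPM (Mest) in the Dio2/Fndc3c1 tanycytes.

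Most of these 15 genes marked tanycytes in general and not the Dio2/Fndc3c1 side. None of them reached 2-fold between the tanycyte groups. Lrat was at 118 against 66.0 CPM, 1.79-fold higher with a 95% interval of 1.30 to 2.50, and Sfrp2 at 227 against 138 CPM, 1.64-fold higher with a 95% interval of 1.31 to 2.06. Cldn10 was at 1666 against 1102 CPM, 1.51-fold higher with a 95% interval of 1.40 to 1.64. Ager, a cell surface receptor gene, was the other way, at 135 against 251 CPM. The median log2 ratio of all genes against other cells was 0.42. With mitochondrial and haemoglobin genes left out of the totals that median was 0.08, and 494 genes were at least 3-fold higher.

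Between the tanycyte groups, the Dio2/Fndc3c1 tanycytes were higher in immediate early genes, the fast transcription factor and phosphatase genes that cells switch on soon after stimulation or stress. Against the other tanycytes, 104 of 6096 genes (1.71%) were at least 2-fold higher in the Dio2/Fndc3c1 tanycytes and 80 (1.31%) at least 2-fold lower, with a median log2 ratio of -0.07 over all genes. All 15 measured genes of the immediate early list were among the 104, with a median log2 ratio of 1.72. Fos (chr12:85473890-85477273, plus strand) was at 3289.9 CPM in the Dio2/Fndc3c1 tanycytes and 1052 CPM in the other tanycytes, 3.13-fold higher with a 95% interval of 2.90 to 3.37. Junb was at 2569 against 560.2 CPM and Ier2 at 1559 against 307 CPM. Fos is also abundant elsewhere in the library, at 3367 CPM in all other cells, and had a UMI in 31.5% of haemoglobin-rich cells after thinning, beside 73.2% of the Dio2/Fndc3c1 tanycytes and 54.1% of the other tanycytes. The whole list summed to 18676 CPM in the Dio2/Fndc3c1 tanycytes, 5462 CPM in the other tanycytes and 17250.5 CPM in all other cells. The 241 haemoglobin-rich cells held 2104007 UMIs with a median immediate early share of 0.0713%, and all but 1 of them were counted in all other cells. They lower the last sum, so it does not rank the remaining cells below the Dio2/Fndc3c1 tanycytes.

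The groups differed in the share of cells with high levels. The median immediate early share per cell was 1.67% in the Dio2/Fndc3c1 tanycytes, 0.192% in the other tanycytes and 0.631% in all other cells. Haemoglobin-rich cells, with a median of 0.0713%, were counted in all other cells and lower the last value. At least 1% was reached by 70 of 123 Dio2/Fndc3c1 tanycytes (56.9%, exact 95% binomial interval 47.7 to 65.8%) and 15 of 98 other tanycytes (15.3%, 8.83 to 24.0%). It was also reached by 338 of 769 other cells (44.0%, 40.4 to 47.5%). Haemoglobin-rich cells held a median of 93.8% haemoglobin UMIs, which left little room for a 1% share, and 0 of 241 reached it. All 338 were thus among the 529 other cells that were not haemoglobin-rich, a larger share than in the Dio2/Fndc3c1 tanycytes. The limit of 1% was chosen after the values had been seen, and 11 cells of each tanycyte group lay between 0.5% and 1.5%. Thinned to 3000 UMIs, the shares were 57.7% and 14.3%. Among cells at or over 1%, Fos was at 4342 CPM in the Dio2/Fndc3c1 tanycytes and 5674 CPM in the other tanycytes, and Junb at 3418 and 3004 CPM.

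**Figure D2:**
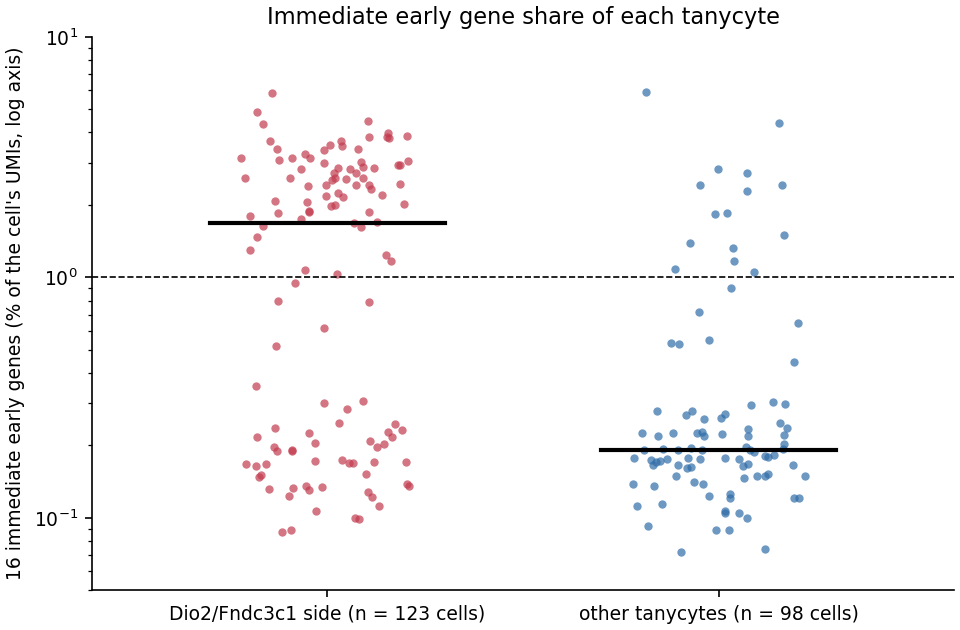
Share of each cell's UMIs that came from immediate early genes, 1 point per cell and a log axis, for the Dio2/Fndc3c1 tanycytes and the other tanycytes, with a solid line at the median of each group and a dashed line at the 1% limit. The Dio2/Fndc3c1 tanycytes fall on both sides of the limit, 70 of 123 at or over it, while 15 of 98 other tanycytes reach it.

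Depth, distance from the line and mitochondrial share differed as well. Of the 22 cells tied on the rule, 5 (22.7%) reached 1%, of the 51 cells ahead by 1 to 4 UMIs 26 (51.0%), and of the 50 cells ahead by 5 or more 39 (78.0%). These sets had medians of 7527.5, 6598 and 14911 UMIs in the same order. The Dio2/Fndc3c1 tanycytes at or over 1% had a median of 12389 UMIs and 3973 genes, and those under 1% had 6336 UMIs and 2810 genes. In the other tanycytes the same medians were 6696 and 7297 UMIs, so high cells were not deeper there. The median mitochondrial share was 7.21% in the Dio2/Fndc3c1 tanycytes, 5.44% in the other tanycytes and 2.36% in all other cells, and it was 7.21% under and 7.20% at or over the 1% limit within the Dio2/Fndc3c1 tanycytes. Over these 123 cells, Spearman's rho of the immediate early and mitochondrial shares, both shares of the same UMIs, was -0.24, given as a description. In the same way, rho of the immediate early share was 0.37 with depth. With the share of the 4 genes of the Dio2/Fndc3c1 side it was 0.14. The part of depth, of cell quality and of enzymatic dissociation of the tissue, in the immediate early levels was not tested.

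The promoter windows of the immediate early genes were searched for the full cAMP response element, TGACGTCA, the palindromic site of the CREB and ATF factors, which reads the same on both strands. In the RefSeq windows of GRCm38.p6, from 250 bases before to 50 bases after a start, 588 of 32851 windows (1.79%) and 549 of 27025 genes (2.03%) held it. Of 14 matched genes on the immediate early list 2 held it, Btg2 and Dusp1, and of 12 matched genes among the 15 furthest above the other tanycytes 1 did, Maff. The 3 sites are printed because these genes belong to the set that differed most, with the element in capitals, at chr1:134079303-134079332 (Btg2, minus strand), chr17:26508597-26508626 (Dusp1, minus strand) and chr15:79347480-79347509 (Maff, plus strand).
Btg2: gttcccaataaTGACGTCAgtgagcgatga
Dusp1: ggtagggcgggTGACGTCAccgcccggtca
Maff: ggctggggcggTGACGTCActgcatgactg
The element began 166, 143 and 29 bases before the start in the same order. The match is a description of these letters and says nothing of binding. Btg2, an antiproliferative gene, was at 1532 against 507 CPM, Dusp1, a phosphatase of MAP kinases, at 642 against 237 CPM, and Maff, a small Maf factor, at 159 against 15.5 CPM. The direction turned within cells at or over 1% for Btg2 (2033 against 2662 CPM) and Dusp1 (832 against 1219.9 CPM), and for Btg2 also in cells under 1% (129 against 156 CPM).

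Of the 15 genes furthest above the other tanycytes, 4 were on the immediate early list, Ier2, Fosb, Atf3 and Junb. Egr2, another early response factor that was not on the list, was at 86.3 against 18.1 CPM. The highest ratio was that of Matn2, a matrilin of the extracellular matrix (chr15:34306677-34436273, plus strand), at 53.9 CPM against 2.59 CPM, which was 75 UMIs against 2 and thus 20.8-fold higher with a 95% interval of 5.57 to 175. All other cells were at 50.6 CPM for Matn2, about the level of the Dio2/Fndc3c1 tanycytes, and above that level for Cxcl10 (119 CPM) and Egr2 (109.6 CPM). Matn2 was found in 28.5% of the Dio2/Fndc3c1 tanycytes and 2.04% of the other tanycytes, against 4.15% of haemoglobin-rich cells. The share in the other tanycytes was thus within the background, and that in the Dio2/Fndc3c1 tanycytes above it. Irs2, an adaptor of the insulin receptor, was at 84.8 against 12.9 CPM, the stress-response gene Gadd45a at 118 against 20.7 CPM and the phosphatase gene Dusp5 at 34.5 against 5.17 CPM. The chemokine gene Cxcl10 (101 against 12.9 CPM) owed 64.5% of its UMIs to 1 cell. The others were Nfatc2 (48.9 against 6.47 CPM), Irf2bp2 (68.3 against 11.6 CPM), the kinesin gene Kif5a (35.9 against 7.76 CPM) and the uncharacterised gene Gm26802 (47.5 against 10.3 CPM). In cells under 1% immediate early UMIs, Gadd45a (5 against 11 UMIs), Kif5a (3 against 6) and Nfatc2 (0 against 2) had too few UMIs to be compared.

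The 10 genes furthest below the other tanycytes were of several kinds. Fam183b, a gene of motile cilia, was at 6.47 against 64.7 CPM, 10.00-fold lower (95% interval 4.87 to 23.1). The AMPA receptor subunit gene Gria2 was at 11.5 against 64.7 CPM, 5.62-fold lower (95% interval 3.15 to 10.6), and Igfbp3, which binds insulin-like growth factors, at 13.7 against 66.0 CPM, with too few UMIs to compare in cells at or over 1% immediate early UMIs (10 against 1 UMIs, 9.75 against 9.24 CPM). Crym, whose protein binds thyroid hormone in the cytosol, was at 10.1 against 46.6 CPM, 4.63-fold lower (95% interval 2.44 to 9.29). S100a6, a calcium-binding protein, differed over the most UMIs, at 159.6 against 538 CPM, 3.37-fold lower (95% interval 2.86 to 3.99), and was found in 48.8% and 72.4% of cells. The rest were Ucma (33.1 against 124 CPM), the cadherin gene Cdh22 (12.2 against 45.3 CPM), the chaperone gene Hspa2 (27.3 against 95.7 CPM), Gm11266 (20.1 against 71.2 CPM) and Lfng, a modifier of Notch (21.6 against 73.7 CPM).

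**Figure D3:**
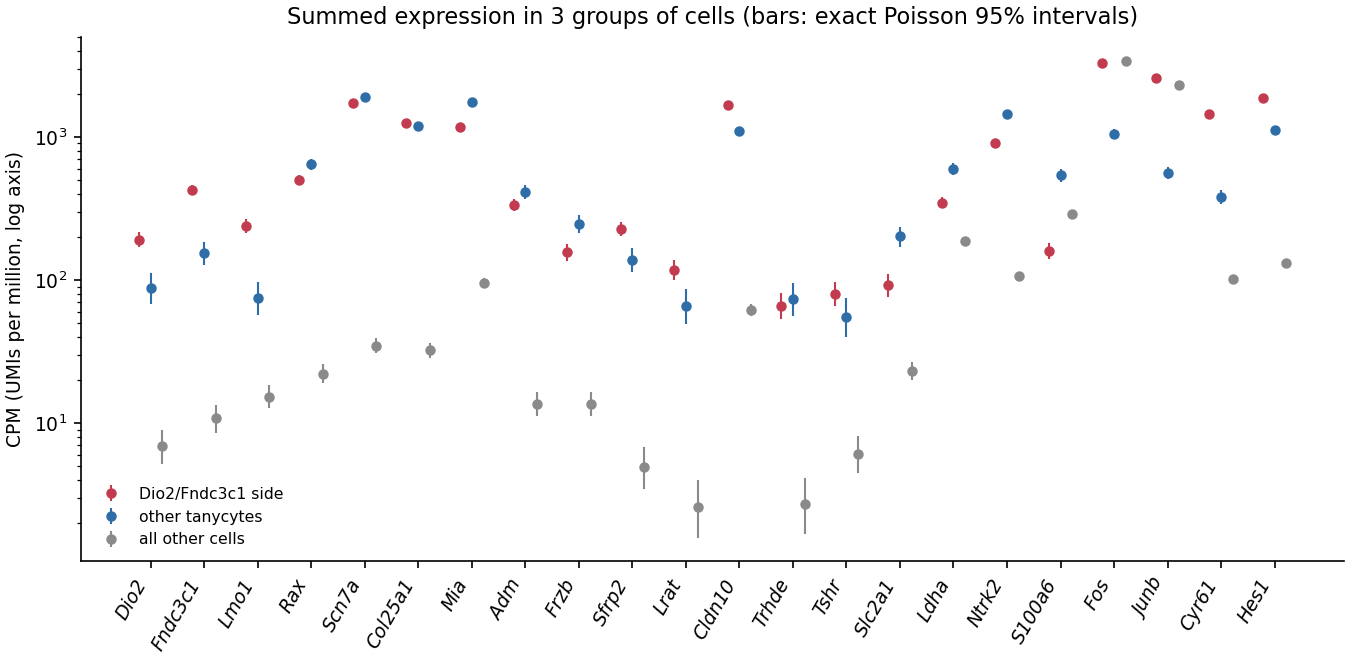
Level of selected genes in the Dio2/Fndc3c1 tanycytes, the other tanycytes and all other cells, in CPM on a log axis, with exact Poisson 95% intervals that cover counting error only. The first 6 genes from the left belong to the rule. Cldn10, Lrat and Sfrp2 are higher in both tanycyte groups than in all other cells, Fos is lowest in the other tanycytes, and S100a6 is highest there.

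To see what was left apart from immediate early genes, the groups were compared again among the cells under 1%, 53 Dio2/Fndc3c1 tanycytes with 365591 UMIs and 83 other tanycytes with 664778. There 12 of 3647 genes (0.329%) were at least 2-fold higher and 40 (1.1%) at least 2-fold lower. Of the 104 genes higher over all cells, 33 had enough UMIs in this smaller set. Of these 33, 3 were past 2-fold here too, Apod, Bag1 and Zfos1, named after their values were seen, and they were 3 of the 12. Of the 80 lower genes, 42 had enough UMIs, and 15 of these 42 were past 2-fold here too, 37.5% of the 40. This set is part of the same cells and holds 664778 of the 772984 UMIs of the other tanycytes, so the 2 comparisons are not independent. The 15 include the haemoglobin genes Hba-a1 and Hba-a2. One of the other tanycytes in this set, with 27.0% haemoglobin, held 2347 of the 5276 erythrocyte marker UMIs of all 98 other tanycytes. None of the 11 immediate early genes that could be measured reached 2-fold, with a median log2 ratio of 0.28, although the split itself used these genes.

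The rule largely fixes the direction of its own genes in any subset of these cells, so their values are a description only. In the cells under 1%, Dio2 was at 164 against 85.7 CPM and Fndc3c1 at 361 against 161 CPM. The vitamin A enzyme gene Lrat was at 175 against 61.7 CPM, 2.84-fold (95% interval 1.89 to 4.31), and Sfrp2 at 252 against 147 CPM. Lrrtm3, a synaptic adhesion gene, was at 289.9 against 122 CPM, Apod, a lipid carrier, at 95.7 against 40.6 CPM, and Ptprf, a receptor phosphatase gene, at 191 against 94.8 CPM. The growth factor gene Fgf10 was at 98.5 against 46.6 CPM. On the low side, S100a6 stayed at 169.6 against 579 CPM, Gria2 at 13.7 against 67.7 CPM and Ucma at 43.8 against 132 CPM.

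**Figure D4:**
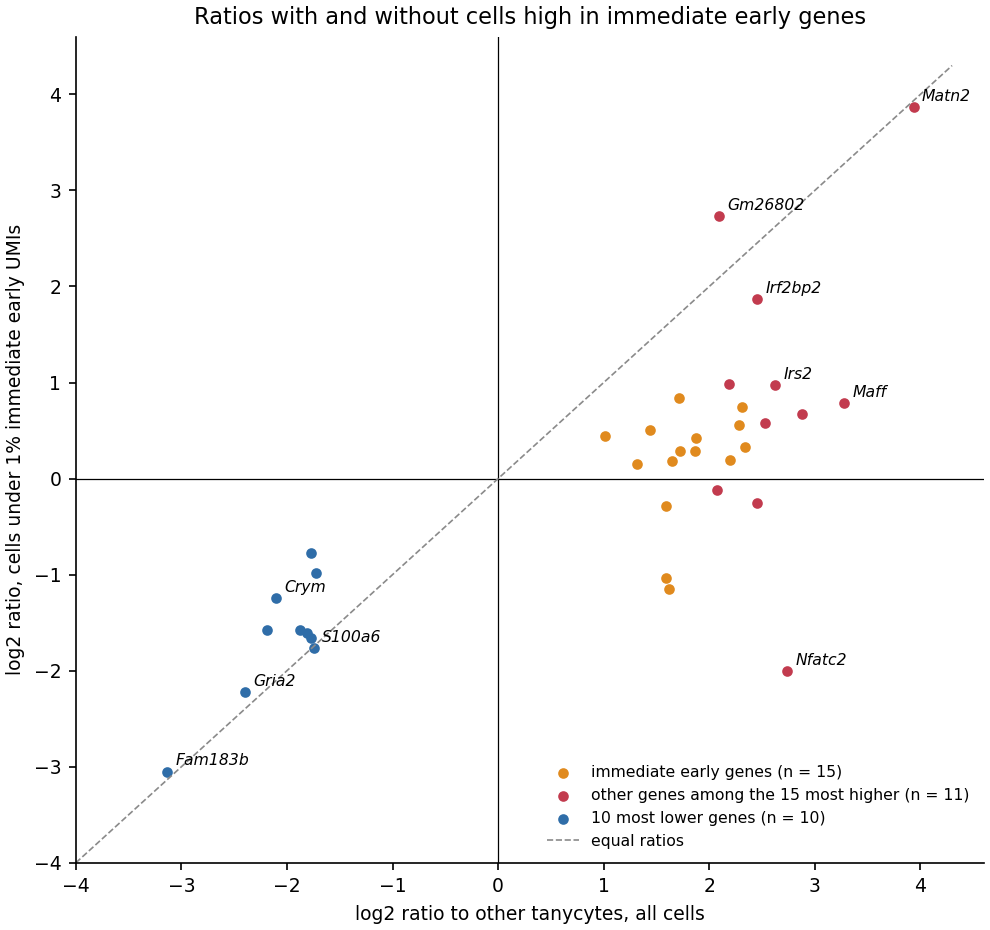
Log2 ratio of Dio2/Fndc3c1 tanycytes to other tanycytes over all cells (horizontal axis) and over cells with under 1% immediate early UMIs (vertical axis), 1 point per gene, for immediate early genes, the other genes among the 15 furthest above and the 10 furthest below the other tanycytes. Immediate early genes lie above 1 on the horizontal axis and below 1 on the vertical one, while S100a6 and Gria2 lie close to the line of equal ratios. No minimum of UMIs applies on the vertical axis, and Matn2 (13 UMIs against 1) and Fam183b (2 against 35) are below the 50 UMIs needed for a comparison there.

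Genes of thyroid hormone handling differed by less than 2-fold between the tanycyte groups apart from Dio2, which the rule used, and Crym. Of 14 genes, 7 had enough UMIs, 0 were at least 2-fold higher and 1, Crym, was lower. For this list and those below, the shares over all genes were 1.71% at least 2-fold higher and 1.31% lower. A count of 0 in lists this short therefore does not set them apart. Trhde was at 66.1 CPM in the Dio2/Fndc3c1 tanycytes, 73.7 CPM in the other tanycytes and 2.73 CPM in all other cells, and was thus a tanycyte gene on either side of the rule. Tshr, the receptor for thyrotropin, was at 80.5 against 55.6 CPM, with a ratio of 1.45 (95% interval 1.01 to 2.11), and the hormone-responsive gene Klf9 at 340.1 against 239 CPM. The receptor gene Thra was at 171, 194 and 162 CPM, about as high outside tanycytes as in them.

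Genes that mark tanycyte subtypes did not separate the groups in the same way as the rule. Of 7 measured genes of ME (beta) tanycytes, 0 were at least 2-fold higher and 1 was lower, the opioid peptide gene Penk at 76.9 against 211 CPM, which was within 2-fold in cells under 1% immediate early UMIs (153 against 217 CPM). The beta list summed to 4219 CPM in the Dio2/Fndc3c1 tanycytes, 4625 CPM in the other tanycytes and 1216 CPM in all other cells, with Igfbp5, a binding protein of insulin-like growth factors, at 1095 and 1032 CPM, and Rgcc, a cell cycle regulator, at 1219 and 797 CPM. Mia, a secreted protein, was at 1175 and 1756 CPM but may share reads with an overlapping gene model. Of 8 genes listed for alpha tanycytes, which lie more dorsally, only 2 had enough UMIs. They were Crym, which was lower, and Fgf10, at 69.0 against 42.7 CPM (1.62-fold higher, 95% interval 1.08 to 2.48). The data hold no cell positions, so they do not show that Fgf10 belongs with alpha tanycytes. Of 19 genes of motile cilia, 3 could be measured, with list sums of 152 against 369 CPM, in the direction that the rule's own cilium genes fix. Astrocyte genes had 1 of 6 past 2-fold, the glutamate transporter gene Slc1a2 at 84.1 against 37.5 CPM, and 0 of 6 in cells under 1% immediate early UMIs, where Slc1a2 was at 71.1 against 40.6 CPM.

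Of genes for glucose and lactate use, 6 of 16 could be measured and 1 was past 2-fold, the glucose transporter gene Slc2a1, at 92.0 CPM in the Dio2/Fndc3c1 tanycytes and 202 CPM in the other tanycytes, 2.19-fold lower (95% interval 1.72 to 2.79). In cells under 1% immediate early UMIs it was at 126 against 212 CPM. The lactate dehydrogenase gene Ldha was at 348 against 596 CPM, Ldhb, the other lactate dehydrogenase, at 495 against 546 CPM, and the glycogen phosphorylase gene Pygb at 87.0 against 149 CPM. Barrier and junction genes had 0 of 9 past 2-fold in either direction, beside 1.71% higher and 1.31% lower over all genes. The cadherin gene Cdh2 was at 574 and 621 CPM and the occludin gene Ocln at 51.0 and 47.9 CPM. Vegfa, which acts on capillaries, was at 241 and 168 CPM. Of 17 retinoic acid genes, 2 could be measured and neither reached 2-fold.

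Hypothalamic transcription factors had 0 of 10 past 2-fold, beside 1.71% higher and 1.31% lower over all genes. Their median log2 ratio was 0.32 against -0.07 for all genes. Hes1, a Notch target (chr16:30064384-30067796, plus strand), was at 1880.1 against 1110.0 CPM over all cells but 733 against 849.9 CPM in the cells under 1% immediate early UMIs. The glial factor gene Sox9 was likewise at 417 against 255 CPM and then 257 against 227 CPM. Lhx2, a homeobox gene of tanycytes, was at 208 and 211 CPM, and the homeobox genes Six3 and Six6 at 582 and 195 CPM against 417 and 365 CPM.

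Growth factor and hormone receptors also had 0 of 13 past 2-fold. As only 1.71% of all genes were higher and 1.31% lower by that fold, this count does not set them apart. Ntrk2, the receptor for brain-derived neurotrophic factor, was at 909 against 1453 CPM, 1.60-fold lower (95% interval 1.47 to 1.73), and at 916 against 1434 CPM in the cells under 1% immediate early UMIs. Igf1r, the receptor for insulin-like growth factor, was at 117 against 72.4 CPM, 1.62-fold higher with a 95% interval of 1.19 to 2.23, and Fgfr1 at 281 against 247 CPM. Of 15 secreted and matrix genes, 2 were at least 2-fold higher, the matricellular gene Cyr61 (1449 against 382 CPM) and the protease gene Adamts1 (119 against 40.1 CPM), and 2 lower, Igfbp3 and Sfrp5 (43.1 against 91.9 CPM). Cyr61 is itself known as an early response gene, and it was at 164 against 156 CPM in the cells under 1%, where Adamts1 and Sfrp5 were also within 2-fold.

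Transcripts of mitosis were rare in the Dio2/Fndc3c1 tanycytes. Mki67 and Top2a, both markers of cycling cells, had 0 UMIs in 123 cells, which allows a share of up to 2.44% of cells with a UMI, and 0 in the other tanycytes, which allows up to 3.06%. The S-phase list summed to 486 against 506 CPM and the G2/M list to 373 against 376 CPM, and the same lists were at 428 and 820.3 CPM in all other cells. The DNA replication gene Mcm2 had 7 UMIs in 7 Dio2/Fndc3c1 tanycytes and the mitotic kinase gene Cdk1 3 UMIs in 3, against 1 and 0 UMIs in the other tanycytes. Between the tanycyte groups, 0 of the 4 and 5 measured genes reached 2-fold, beside 1.71% higher and 1.31% lower over all genes.

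Markers of other cell types were at lower summed levels in the Dio2/Fndc3c1 tanycytes than in all other cells, and single cells held a large part of some sums. Erythrocyte markers summed to 3718 CPM, against 6825 CPM in the other tanycytes and 256904 CPM in all other cells, with Hbb-bs the most abundant. One of the other tanycytes, with 27.0% haemoglobin, held 2347 of their 5276 marker UMIs, and without it their sum was 3832 CPM. Oligodendrocyte markers, led by Mbp, summed to 728 against 789 CPM, and markers of vascular leptomeningeal cells (VLMCs), led by Dcn, to 253 against 181 CPM. Among the VLMC markers Col1a1 was past 2-fold, at 53.9 against 25.9 CPM, and 1 Dio2/Fndc3c1 tanycyte held 83 of the 352 UMIs (23.6%), without which the sum was 195 CPM. Neuron markers summed to 53.2 against 53.0 CPM with 7 of 8 detected, OPC (oligodendrocyte precursor) markers to 39.5 against 24.6 CPM, and macrophage and microglia markers to 114 against 138 CPM. Endothelial and mural markers were at 10.8 CPM, with Cldn5 and Flt1 at 0 UMIs, and NK and T cell markers at 3.59 CPM, with Cd3e and Gzma at 0 UMIs. Pars tuberalis and pituitary markers stood at 580.2 CPM against 281 CPM, led by Chga. One cell tied on the rule, with 12050 UMIs, held 443 of those UMIs, 54.9% of the list, and the next highest cell held 18. Without it the sum was 264 CPM, below that of the other tanycytes. Scrublet called 3 of 990 cells doublets, 1 of them a Dio2/Fndc3c1 tanycyte, and not the cell with pituitary markers.

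The bulk libraries were not used by the rule, and the same genes could be followed across genotype in them. In bulk, CPM are read counts scaled in the same way after TMM normalization. The libraries hold whole ME tissue, which in the mutants the paper describes as tumor. Fewer cells of a type and less RNA per cell cannot be told apart in them. No gene passed an adjusted p of 0.05 in edgeR among 20466 tested, in either direction. At an unadjusted p under 0.05 there were 865 genes higher (4.23%) and 796 lower (3.89%) in the mutants, and DESeq2 called 250 higher and 110 lower. The WT and mutant libraries did not overlap for 1194 genes that were higher in the mutants (5.83%) and for 650 that were lower (3.18%). WT library 3, WT library 2 and mutant library 1 detected 17874, 21986 and 25910 genes, and the other 4 libraries from 34942 to 40852, so that library complexity was spread unevenly over the groups.

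Markers of other cells also differed in level between the bulk groups, with none past the adjusted threshold. Over all genes, 5.83% were higher and 3.18% lower with no overlap, and 4.23% were higher and 3.89% lower at an edgeR unadjusted p under 0.05. The 6 OPC markers, which include Pdgfra and Olig2, all had a log2 fold change above 0, and 4 of them did not overlap between groups, with sums of 226, 538 and 247 CPM in the WT libraries and 1520.0, 800.2, 728 and 1851 CPM in the mutant libraries. The 6 oligodendrocyte markers were all lower at an unadjusted p under 0.05, with sums of 5633, 18253 and 15579 CPM in the WT libraries and 7117, 5403, 3453 and 4004 CPM in the mutant libraries, and 3 of 5 tested VLMC markers were lower with no overlap. Of 7 pars tuberalis and pituitary markers, 3 were lower at an unadjusted p under 0.05, with sums of 13278, 4653 and 2492 CPM in the WT libraries and 3273, 2264, 4182 and 870.4 CPM in the mutant libraries. Of 8 endothelial and mural markers, Emcn and Kdr were lower with no overlap. Of 14 astrocyte genes, 6 were higher with no overlap, among them the transporter genes Slc1a2 and Slc6a11, with a median log2 fold change of 0.62 and overlapping sums of 2451, 6871 and 6946 CPM in the WT libraries and 7991, 4329.7, 4836 and 5898 CPM in the mutant libraries. Of 8 neuron markers, 2 were higher with no overlap. All 7 macrophage and microglia markers overlapped between groups, 0 had a log2 fold change above 0, and their median was -0.89. One of the 7 was lower at an unadjusted p under 0.05. The part of these cells in the values below was not tested.

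The genes that chose the cells did not move as one in bulk. Dio2 was at 39.9, 37.9 and 59.6 CPM in the WT libraries and 58.6, 123, 95.03 and 57.9 CPM in the mutant libraries, and the groups overlapped (log2 fold change 0.87 with SE 0.36, edgeR adjusted p = 0.574). Fndc3c1 was at 228, 118 and 123 CPM in the WT libraries and 82.1, 192, 119 and 40.8 CPM in the mutant libraries, with the highest value in WT library 1 and the lowest in mutant library 4 (log2 fold change -0.53 with SE 0.47, edgeR adjusted p = 0.832). Lmo1 was at 41.7, 44.4 and 50.8 CPM in the WT libraries and 129, 87.0, 65.8 and 64.9 CPM in the mutant libraries, higher in every mutant library than in any WT library (log2 fold change 0.93 with SE 0.32, edgeR adjusted p = 0.514). The fold changes of the 3 genes thus differed in sign, and none passed the adjusted threshold. Fezf2 was at 6.78, 0.533 and 8.56 CPM in the WT libraries and 15.4, 5.31, 6.18 and 4.83 CPM in the mutant libraries (log2 fold change 0.59 with SE 0.86, edgeR adjusted p = 0.909), and Rax, which also drives Cre in the mutants, at 26.8, 40.9 and 143 CPM in the WT libraries and 175, 72.5, 33.2 and 48.6 CPM in the mutant libraries (log2 fold change 0.23 with SE 0.66, edgeR adjusted p = 0.959). Both overlapped between groups, and Rax was highest in WT library 3 and mutant library 1. Scn7a was at 105, 203 and 208 CPM in the WT libraries and 106, 104, 86.7 and 79.0 CPM in the mutant libraries, lower on average in the mutants but with WT library 1 inside the mutant range (log2 fold change -0.87 with SE 0.31, edgeR adjusted p = 0.514).

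On the other side of the rule, Mlc1 was at 296, 669 and 375 CPM in the WT libraries and 1569, 805, 905 and 814 CPM in the mutant libraries, with every mutant library above the WT libraries and mutant library 1 far above the rest (log2 fold change 1.20 with SE 0.39, edgeR adjusted p = 0.463). Aqp4 was at 99.8, 138 and 107 CPM in the WT libraries and 169, 155, 196 and 205 CPM in the mutant libraries, again with no overlap (log2 fold change 0.66 with SE 0.27, edgeR adjusted p = 0.555). Both genes are also expressed by astrocytes. Dynlrb2 overlapped between groups (log2 fold change -0.39 with SE 0.33, edgeR adjusted p = 0.821).

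Sfrp2 had the lowest bulk p of the genes named for their ratio between groups of cells, though not of all genes on the lists. It was at 19.9, 51.8 and 38.1 CPM in the WT libraries and 10.6, 7.29, 6.18 and 5.54 CPM in the mutant libraries, so every mutant library lay below every WT library (log2 fold change -2.30 with SE 0.44, edgeR adjusted p = 0.194). Its unadjusted p was 0.0003, and over the alternatives tried its adjusted p ran from 0.000565 (DESeq2) to 0.9998 (replicate block). Of the 15 genes furthest above all other cells, all were tested, 6 were lower and 0 higher at an unadjusted p under 0.05, and 3 did not overlap between groups, Sfrp2, Ager (log2 fold change -2.24 with SE 0.53, edgeR adjusted p = 0.359) and Trpm3 (log2 fold change -1.03 with SE 0.29, edgeR adjusted p = 0.428). The median log2 fold change of these 15 was -0.76, against 0.13 for all genes tested. Of all genes, 3.89% were lower at that p and 3.18% were lower with no overlap. Lrat was at 23.2, 30.6 and 29.7 CPM in the WT libraries and 12.4, 24.6, 12.5 and 7.51 CPM in the mutant libraries, with mutant library 2 inside the WT range (log2 fold change -0.96 with SE 0.43, edgeR adjusted p = 0.615). Cldn10 was at 376, 474 and 443 CPM in the WT libraries and 417, 361, 311 and 231 CPM in the mutant libraries, with little distance between groups (log2 fold change -0.39 with SE 0.29, edgeR adjusted p = 0.791).

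Over all genes, 4.23% were higher and 3.89% lower at an edgeR unadjusted p under 0.05, with a median log2 fold change of 0.13. Of the 15 genes furthest above the other tanycytes, 14 could be tested in bulk, with 1 higher and 1 lower at that p and a median of 0.55. Matn2 was the lower one, at 51.2, 76.8 and 51.1 CPM in the WT libraries and 42.7, 24.6, 23.2 and 25.2 CPM in the mutant libraries, and its groups did not overlap (log2 fold change -1.04 with SE 0.33, edgeR adjusted p = 0.45). The higher one was Irs2, at 19.5, 11.5 and 6.08 CPM in the WT libraries and 14.4, 31.6, 33.7 and 47.4 CPM in the mutant libraries, with overlap (log2 fold change 1.36 with SE 0.52, edgeR adjusted p = 0.529). Fosb, at 2.03, 1.69 and 0.856 CPM in the WT libraries and 2.40, 3.02, 15.2 and 3.57 CPM in the mutant libraries, did not overlap but missed an unadjusted p of 0.05 (log2 fold change 1.98 with SE 0.94, edgeR adjusted p = 0.633). Of 15 immediate early genes tested, 2 did not overlap, and 3 were higher and 0 lower at an edgeR unadjusted p under 0.05. Among all genes 4.23% were higher at that p, and 5.83% were higher with no overlap. The median log2 fold change of the list was 0.33. Its sums were not apart, at 525, 979.5 and 651 CPM in the WT libraries and 1685, 720.0, 1430.5 and 429 CPM in the mutant libraries. Mutant libraries 1 and 3 were the highest and mutant library 4 the lowest, so the spread within the mutants was larger than the distance between groups.

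Of the 10 genes furthest below the other tanycytes, all were tested, 3 were higher and 0 lower at an edgeR unadjusted p under 0.05, and their median log2 fold change was 0.20. Over all genes, 4.23% were higher and 3.89% lower at that p, 5.83% were higher and 3.18% lower with no overlap, and the median was 0.13. Crym was at 24.2, 59.2 and 69.1 CPM in the WT libraries and 217, 87.0, 220.0 and 228 CPM in the mutant libraries, with the lowest mutant library above the highest WT library (log2 fold change 1.88 with SE 0.46, edgeR adjusted p = 0.359). Over the alternatives tried its adjusted p ran from 0.00537 (no filter) to 0.9998 (replicate block), and in DESeq2 it was 0.0156. Gria2 (log2 fold change 0.74 with SE 0.29, edgeR adjusted p = 0.545) and Lfng (log2 fold change 1.22 with SE 0.52, edgeR adjusted p = 0.585) were also higher with no overlap, and Igfbp3 (log2 fold change -0.78 with SE 0.36, edgeR adjusted p = 0.62) was lower with no overlap. S100a6 was at 154, 159 and 165 CPM in the WT libraries and 186, 113, 204 and 177 CPM in the mutant libraries and overlapped (log2 fold change 0.09 with SE 0.28, edgeR adjusted p = 0.96).

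**Figure D5:**
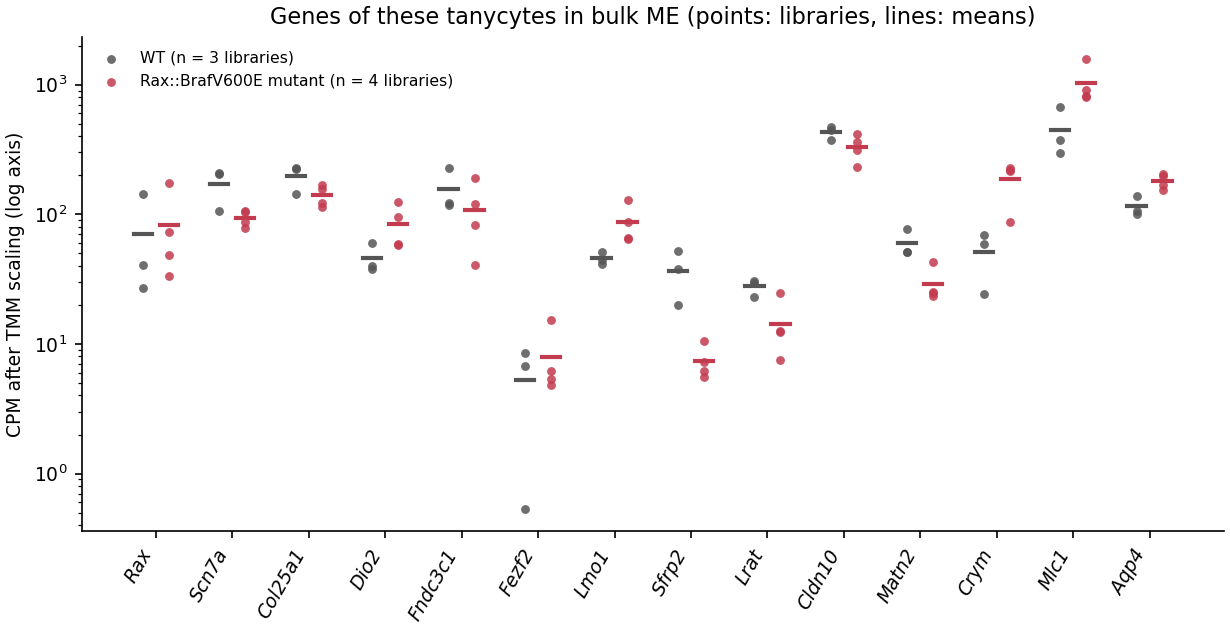
CPM in each bulk ME library, WT and mutant, for genes of the rule and genes named from the single cells, 1 point per library on a log axis with the group mean as a line. Sfrp2 and Matn2 lie lower and Lmo1 and Crym higher in every mutant library than in any WT library, while Dio2 and Fndc3c1 overlap.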

How the data were processed

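The ME of 10 mice was pooled, dissociated with papain and captured with the 10x Chromium 3′ v2 chemistry. The authors deposited a filtered matrix of UMI counts, whole numbers with no normalization, for 27998 genes in 990 cells, of which 18181 genes had a UMI. The submitters' processing notes name Cell Ranger 2.0.1, while the methods give a later release, and the builds GRCm38 and mm10. For bulk tissue, the authors made Smart-seq2 libraries from oligo(dT)-primed RNA and deposited raw read counts for 55450 genes in 7 libraries, with totals from 4928456 to 13816596. The aligner and counter of these counts are not given in the sources used here. No column of per-sample values was left unused (0 columns).

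Cells were assigned by the rule on UMI counts, without clustering. Counts were summed per group of cells and compared as CPM with a pseudocount of 1 CPM, among genes with at least 50 UMIs over both groups and with the 11 rule genes left out. Intervals are 95% Poisson, Clopper-Pearson or exact conditional intervals and cover counting error only. Thinning drew 3000 UMIs per cell without replacement, and no cell was shallower. Haemoglobin-rich cells had at least 10% of UMIs from haemoglobin genes. Doublets were called with Scrublet at an expected rate of 0.06 and kept in. Genes were named as those of the rule, the 15 highest and 10 lowest ratios to other tanycytes and the 15 highest ratios to all other cells, with a UMI in at least 10% of the cells of the higher group, and the genes of fixed lists. The members, lists and named genes were chosen with earlier results of these data known, and the split at 1% immediate early UMIs and the genes named from it were added after the values had been seen.

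Bulk counts were tested with edgeR 4.0.16 (quasi-likelihood, TMM scaling, low counts filtered by group) in R 4.3.3 over all 7 libraries, with Benjamini-Hochberg adjustment over 20466 genes and a threshold of 0.05. The edgeR test stands in place of DESeq2, which the labels name and which was run as an alternative (version 1.42.0). Other alternatives were upper-quartile scaling, no filter, a replicate block and leaving out each library, and for cells other minimums, margins, pseudocounts and totals. The steps were tested on simulated data. Single-cell work used Python 3.11.15, scanpy 1.11.5, scipy 1.17.1 and numpy 2.4.6. Gene positions are from the GRCm38 annotation and promoter windows from RefSeq. Some genes are not reported here by name.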

Additional observations from a re-analysis of the deposited data

Results flagged for a closer look

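Among the 4 mutant bulk libraries, 25 items were tested, 24 genes and 1 summed gene list. For 6 of them, all genes, 1 library stood far from the other 3, past Dixon's 95% limit for the ratio of gap to range, which chance alone passes in about 1 of 20 groups. Mutant library 1 was the high one for Mlc1 (1569 CPM), Matn2 (42.7 CPM), Dynlrb2 (40.4 CPM) and Fezf2 (15.4 CPM), and it was also the mutant library with the fewest detected genes. Mutant library 2 was the low one for Crym, at 87.0 CPM. Mutant library 3 was the high one for Fosb, at 15.2 CPM. The cause was not tested.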

How the results depend on the processing

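Counts of genes past a fold moved with the filter and the cells used. The 104 genes at least 2-fold higher in Dio2/Fndc3c1 tanycytes than in other tanycytes and the 80 lower genes became 12 and 40 in cells under 1% immediate early UMIs, 43 and 24 after thinning, 64 and 42 with a pseudocount of 10 CPM, 286 and 266 with a minimum of 20 UMIs, 61 and 29 with a minimum of 100, and 1167 and 1681 with no minimum beyond 1 UMI. In cells at or over 1% the higher genes were 247. The 789 genes at least 3-fold above all other cells became 1267 under 1%, 372 at or over 1%, 494 with mitochondrial and haemoglobin genes left out and 367 with a pseudocount of 10 CPM. The number of Dio2/Fndc3c1 tanycytes ran from 101 to 127 over the other tanycyte minimums and without tied cells, and was 50 with a margin of 5 UMIs. The share of them with at least 1% immediate early UMIs was 78.0% with that margin, and with a limit of 2% it was 43.1%, against 7.14% of the other tanycytes. Of 1027 recomputed log2 ratios for 79 genes, 847 moved by less than their counting interval, 171 moved by more and 9 changed sign. In cells under 1% the sign changed for Btg2 (-0.28), Gadd45a (-0.26), Kif5a (-0.12) and Nfatc2 (-2.003), the last 3 on at most 16 UMIs, and in cells at or over 1% for Btg2 (-0.39), Dusp1 (-0.55), Fos (-0.39), Jun (-0.16) and Igfbp3 (0.070, on 11 UMIs). In bulk, the 0 genes higher and 0 lower in the mutants became 250 and 110 in DESeq2, 0 and 1 with upper-quartile scaling, 101 and 139 with no filter, and 69 and 141 without the 3 libraries with the fewest detected genes, where the 1 WT library left is assumed to vary like the mutants. Leaving out 1 library gave 0 to 22 higher and 0 to 23 lower, with 22 and 23 without WT library 1 and 5 and 11 without WT library 3. Same-numbered libraries did not deviate together (correlations -0.454, -0.008 and -0.227), but so few values cannot exclude pairing. A replicate block gave 0 and 0, with mutant library 4 alone in its block and few degrees of freedom left. The median log2 fold change of all genes was 0.63 in DESeq2, 0.59 with no filter, 0.43 without WT library 1 and 0.27 with the block, against 0.13. Of 288 bulk values for 24 genes, 4 changed sign, Cfap126 (-0.058) and Fezf2 (-0.31) without the 3 libraries, and Rax, from -0.42 to 1.32 over left-out libraries, negative without WT library 1 (-0.17) and without mutant library 1 (-0.42). Sfrp2 and Ager passed the adjusted threshold in DESeq2 (0.000565 and 0.00984) and with no filter (0.00254 and 0.00012), and Sfrp2 also without WT library 1 (0.0489). Crym passed in DESeq2 (0.0156), with no filter (0.00537) and without the 3 libraries (0.0350). The causes were not tested. With 1 pooled library, variation between mice is not covered by any interval, and genes under about 50 UMIs could not be compared.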

Other observations

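Some further genes differed in level between the tanycyte groups in cells under 1% immediate early UMIs. Slc7a10, an amino acid transporter known from astrocytes, was at 101 CPM in the Dio2/Fndc3c1 tanycytes and 51.1 CPM in the other tanycytes, 1.98-fold (95% interval 1.21 to 3.25). Cntnap2, an adhesion protein of the neurexin family, was at 120.4 against 57.2 CPM, 2.11-fold (95% interval 1.33 to 3.34). In the other direction, Ece2, a peptide-processing enzyme, was at 30.1 against 91.8 CPM, and Tspan15, a tetraspanin, at 52.0 against 125 CPM. The genes were chosen after their values were seen, from a comparison that was itself added later, and their ratios have no replicate.

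Outside the tanycytes, 338 of 769 cells reached an immediate early share of 1%, and 0 of the 240 haemoglobin-rich cells among them did. Haemoglobin-rich cells, with a median of 93.8% haemoglobin UMIs, could hardly reach that share, so their 0 says nothing of a difference. The 338 were thus all among the remaining 529 cells. Among the other tanycytes, 8 of 66 cells behind by 1 to 4 UMIs on the rule (12.1%) and 7 of 32 cells behind by 5 or more (21.9%) reached it.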
